A study of Mus musculus with 6 samples.

Results

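The genes described are the 9 mouse protein arginine methyltransferases Prmt1, Prmt2, Prmt3, Carm1, Prmt5, Prmt6, Prmt7, Prmt8 and Prmt9, taken by symbol from the 49671 genes of the count table. All 9 were found, and 8 had enough reads to be tested. RNA came from pancreata of C57BL/6J mouse embryos at 14.5 dpc (days post coitum), a tissue of branching epithelium, mesenchyme and vessels in which acinar, ductal and endocrine cells are forming. There were 3 control libraries and 3 libraries from pancreata treated with AMI-5 at 10 µM. The controls are labelled only as control, and the sources used here give neither the length of treatment nor the culture. AMI-5 is a small molecule that inhibits arginine methyltransferases in enzyme assays, with lysine methyltransferases also among its reported targets. The values below are levels of mRNA and say nothing of enzyme activity or protein.

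Arginine methyltransferases move methyl groups from S-adenosylmethionine to arginine side chains of histones, splicing factors and RNA-binding proteins. Type I enzymes (Prmt1, Prmt2, Prmt3, Carm1, Prmt6 and Prmt8) place both methyl groups on the same nitrogen and give asymmetric dimethylarginine. Type II enzymes (Prmt5 and Prmt9) place them on different nitrogens and give symmetric dimethylarginine, and the type III enzyme Prmt7 stops at monomethylarginine. Prmt1 makes most of the asymmetric mark in mammalian cells, and Prmt5 most of the symmetric mark.

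Gene counts summed to 12445425 to 13321899 in the control libraries and 22894312 to 24805188 in the AMI-5 libraries. Markers of the labelled tissue were present in every library: the acinar genes Cpa1 and Ctrb1, the endocrine genes Ins2 and Gcg and the mesenchymal gene Col3a1 were abundant in every library, the lowest being Gcg at 595 CPM in control replicate 3. AMI-5 replicate 2 stood apart in liver transcripts, with Alb at 596 CPM and Afp at 619 CPM against 7.18 to 17.6 and 6.15 to 15.9 CPM in the other AMI-5 libraries. It was also the highest in the erythroid genes Hbb-bt and Hba-a1. The labels name an earlier version of the library kit for samples marked A, the mark carried by the control titles, so, read that way, kit and treatment coincide and their effects cannot be told apart. Separate embryos or cultures are named for none of the samples, so p-values reflect the spread of these 6 samples alone, and that spread may be technical. In bulk tissue, fewer cells of a type and less RNA per cell cannot be told apart.

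Prmt1 was the most abundant member in both groups, followed by Carm1, Prmt5 and Prmt2. With AMI-5, Prmt1, Carm1 and Prmt5 fell by 36.0%, 25.1% and 20.2%, and the remaining tested members did not pass the test. Of the 8 tested members, 3 were lower and 0 higher at an adjusted p under 0.05 (quasi-likelihood test of edgeR, two-sided). DESeq2 and limma voom gave the same counts of 3 and 0. At an unadjusted p under 0.05, 6 were lower and 1, Prmt9, was higher, against 29.4% and 30.1% of all genes tested. Among all 17519 genes tested, 26.6% were lower and 27.5% higher, so a count of 3 lower of 8 is close to this background. The median log2 fold change (AMI-5 over control) was -0.17 over the tested members, -0.0013 over all genes tested and -0.059 over the 10915 tested protein-coding genes with under 5% of their sequence in another gene (unique-sequence genes). The 3 members that fell were also the 3 with the most reads.

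Levels are compared between genes as CPM (read counts scaled to library size with TMM factors) per kilobase of the deposited gene length. In controls Prmt1 stood at 75.5 ± 3.48 CPM per kb (SD, n = 3), 2.92 times the mean of Carm1 at 25.8 ± 1.69. Prmt5 followed at 19.3 ± 0.298, Prmt2 at 14.1 ± 0.532, Prmt6 at 7.98 ± 0.707, Prmt7 at 7.65 ± 0.350, Prmt3 at 6.40 ± 0.0822 and Prmt9 at 3.30 ± 0.211 CPM per kb. Only Prmt6 and Prmt7 overlapped as neighbours in that order, with library ranges of 7.22 to 8.62 and 7.43 to 8.06. The order with AMI-5 was the same, and Prmt6 and Prmt7 again overlapped, at 6.80 to 7.81 and 6.36 to 7.37 CPM per kb. The deposited length counts the merged exons of all transcripts of a gene, so a gene with many little-used exons is set too low on this scale.

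**Figure D1:**
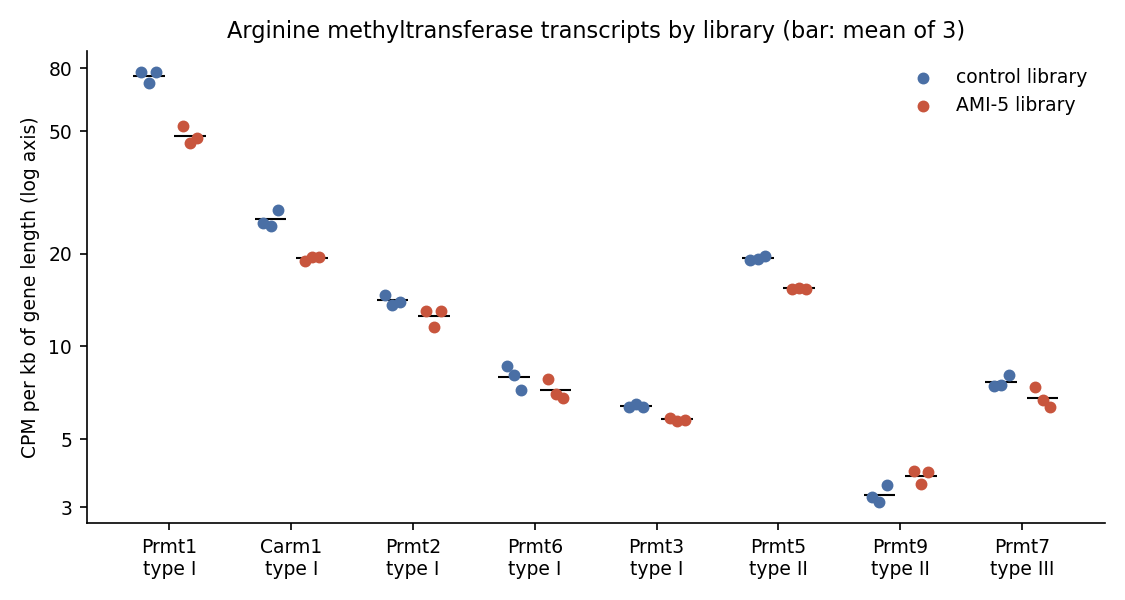
Level of each tested member in CPM per kb of gene length (log axis) for the 3 control (blue) and 3 AMI-5 (red) libraries, with the mean as a bar. Prmt1 lies above all others at 71.5 to 77.6 in controls and 45.6 to 52.1 with AMI-5, and Prmt9 is the one member whose AMI-5 libraries all lie above the controls. Prmt8, with 0 to 3 reads per library, is left out.

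Prmt1, the main type I enzyme, which methylates histone H4 and many RNA-binding proteins, lies on chromosome 7 from 44975989 to 44986568 (mm10, minus strand, ENSMUSG00000109324). It was read 3361 to 3507 times per control library and 3506 to 3975 times per AMI-5 library. Control replicates 1, 2 and 3 were at 265, 245 and 266 CPM, and AMI-5 replicates 1, 2 and 3 at 178, 156 and 162 CPM. Every AMI-5 library lay below every control, with the highest AMI-5 library at 178 CPM and the lowest control at 245 CPM. The log2 fold change was -0.64 (SE 0.064, adjusted p = 5.43e-06), and 6.71% of unique-sequence genes had a lower value. Under all 20 alternative settings Prmt1 stayed lower and past the threshold, at -0.74 to -0.46. Without AMI-5 replicate 2, the library with liver transcripts, Prmt1 was at -0.58, Carm1 at -0.40 and Prmt5 at -0.30, and all passed. Of the 50-base sequences of Prmt1, 1.71% lie in another annotated gene.

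Carm1, also called Prmt4, is a type I enzyme and transcriptional coactivator that methylates histone H3 (chromosome 9, 21546894 to 21592623, plus strand). Its control libraries were at 122, 119 and 135 CPM and its AMI-5 libraries at 91.9, 94.8 and 94.8 CPM. The groups did not overlap, and the AMI-5 libraries lay closer together than the controls. The log2 fold change was -0.42 (SE 0.061, adjusted p = 0.000119). With trends in GC content and gene length removed it was -0.17 (adjusted p = 0.0176), and with a length trend alone removed -0.26 (adjusted p = 0.0019). Of the sequence of Carm1, 17.4% is shared with Yipf2, a gene on the opposite strand that overlaps its end. Yipf2 had means of 54.5 and 56.1 CPM and did not pass (log2 fold change 0.042, adjusted p = 0.681). Whether the counting used strand is not given in the labels, so reads of the overlap cannot be assigned to either gene with certainty.

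None of the other type I members passed the test. Prmt2, an enzyme with an SH3 domain (chromosome 10, 76207222 to 76237865, minus strand), stood at 46.7, 43.4 and 44.3 CPM in the control libraries and 41.5, 36.8 and 41.2 CPM in the AMI-5 libraries. Its AMI-5 libraries lay below its controls, but the log2 fold change of -0.17 did not pass (95% interval -0.32 to -0.016, adjusted p = 0.0597). It was -0.090 without AMI-5 replicate 2. Prmt3, a cytosolic zinc finger enzyme that methylates ribosomal protein S2 (chromosome 7, 49778346 to 49858265, plus strand), stood at 38.2, 38.9 and 38.0 CPM in the control libraries and 35.2, 34.4 and 34.6 CPM in the AMI-5 libraries. Both groups were tight and did not overlap, and the log2 fold change was -0.14 (95% interval -0.28 to -0.0063, adjusted p = 0.0722). Removal of GC and length trends brought Prmt3 to -0.28 and past the threshold (adjusted p = 0.00226), whereas removal of a length trend over all genes brought it to 0.032 (adjusted p = 0.669).

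Prmt6, a nuclear enzyme that methylates histone H3 near its amino terminus (chromosome 3, 110246109 to 110250998, minus strand), stood at 36.2, 34.0 and 30.3 CPM in the control libraries and 32.8, 29.4 and 28.6 CPM in the AMI-5 libraries. It was the one tested member whose groups overlapped, with a log2 fold change of -0.15 (95% interval -0.34 to 0.041, adjusted p = 0.168). Of its sequence, 22.5% is shared with C130013H08Rik, an antisense transcript across its start whose mean was 4.60 CPM without and 5.48 CPM with the compound. Prmt8, a membrane-anchored relative of Prmt1 known from brain (chromosome 6, 127689011 to 127769472, minus strand), was barely read. It had 3 reads in the control libraries together and 8 in the AMI-5 libraries, and it was not tested. Its rate with AMI-5 was 1.55 times that of controls, with a 95% exact interval of 0.373 to 9.08 that covers counting error only. At this depth a moderate change of Prmt8 could not be seen. Of neural and glial genes, Tubb3 had means of 51.4 and 32.9 CPM without and with AMI-5, Elavl4 of 7.27 and 9.90 CPM and Sox10 of 9.10 and 6.09 CPM.

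Prmt5, the main type II enzyme, methylates histones and the Sm proteins of the splicing machinery (chromosome 14, 54507187 to 54517525, minus strand, ENSMUSG00000023110). Its control libraries were at 75.6, 76.2 and 77.8 CPM and its AMI-5 libraries at 61.0, 61.4 and 60.9 CPM. Both groups were narrow, with SDs of 1.18 and 0.256 CPM, and did not overlap. The log2 fold change was -0.32 (SE 0.053, adjusted p = 0.000275), and none of its 50-base sequences lies in another annotated gene. It stayed lower and past the threshold under all 20 alternatives, at -0.42 to -0.16, with the smallest size when a length trend over all genes was removed (-0.16, adjusted p = 0.0131).

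Prmt9, the second type II enzyme, methylates the splicing factor Sf3b2 (chromosome 8, 77549397 to 77581338, plus strand). Its level was 18.4, 17.8 and 20.1 CPM in the control libraries and 22.3, 20.2 and 22.2 CPM in the AMI-5 libraries. It was the one tested member with a positive log2 fold change, at 0.20 (95% interval 0.011 to 0.40, adjusted p = 0.0694). Control replicate 3 at 20.1 CPM and AMI-5 replicate 2 at 20.2 CPM almost met, so the groups barely stood apart. The value did not pass the test, but it did under 8 of 20 alternatives. Leaving out control replicate 3 gave 0.25 (adjusted p = 0.0478), and leaving out AMI-5 replicate 2 gave 0.27 (adjusted p = 0.0397). Leaving out any other library gave 0.16 to 0.20, not past the threshold. With GC and length trends removed it was 0.029 (adjusted p = 0.801).

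Prmt7, the type III enzyme (chromosome 8, 106210936 to 106252794, plus strand), stood at 45.5, 45.8 and 49.3 CPM in the control libraries and 45.1, 41.0 and 38.9 CPM in the AMI-5 libraries. AMI-5 replicate 1 almost reached the lowest control, and 3.24% of the sequence is shared with Smpd3 on the opposite strand. The log2 fold change was -0.17 (95% interval -0.33 to -0.012, adjusted p = 0.0654), and without AMI-5 replicate 1 it was -0.22 and passed (adjusted p = 0.024). Without AMI-5 replicate 3 it was -0.11 (adjusted p = 0.317). Counting tested members whose groups did not overlap, 6 of 8 lay lower with AMI-5 and 1 higher. Among all genes tested, 30.6% had all 3 AMI-5 libraries below all 3 controls and 31.3% had all of them above.

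**Figure D2:**
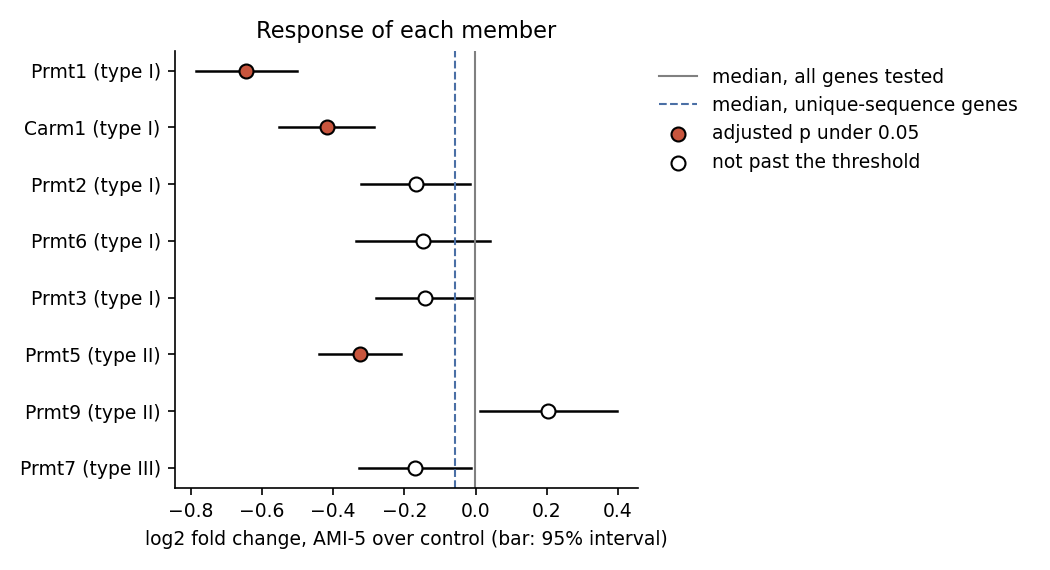
Log2 fold change (AMI-5 over control) of the 8 tested members, with 95% intervals from the edgeR fit; filled points passed the adjusted p threshold. Prmt1, Carm1 and Prmt5 lie at -0.64, -0.42 and -0.32, and the intervals of the other members reach close to 0 or across it.

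The choice of scaling set the reference for the smaller changes. With libraries scaled by their totals alone, the median of unique-sequence genes moved to -0.15 and 7 members were lower, beside 33.6% of all genes tested. The 7 were the members below 0 in the reported fit. With a length trend removed over all genes, the median of all genes moved to 0.10, and Prmt2, Prmt3, Prmt6 and Prmt7 stood at 0.022, 0.032, 0.0092 and 0.0085. Prmt1 was then at -0.46 (adjusted p = 2.78e-05) and Prmt9 at 0.38 (adjusted p = 0.00256). Directions of Prmt2, Prmt3, Prmt6 and Prmt7 reversed under 1 alternative each, that length trend removed. Whether these members passed the threshold depended on the setting. Prmt1, Carm1 and Prmt5 were lower in every setting computed for them.

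**Figure D3:**
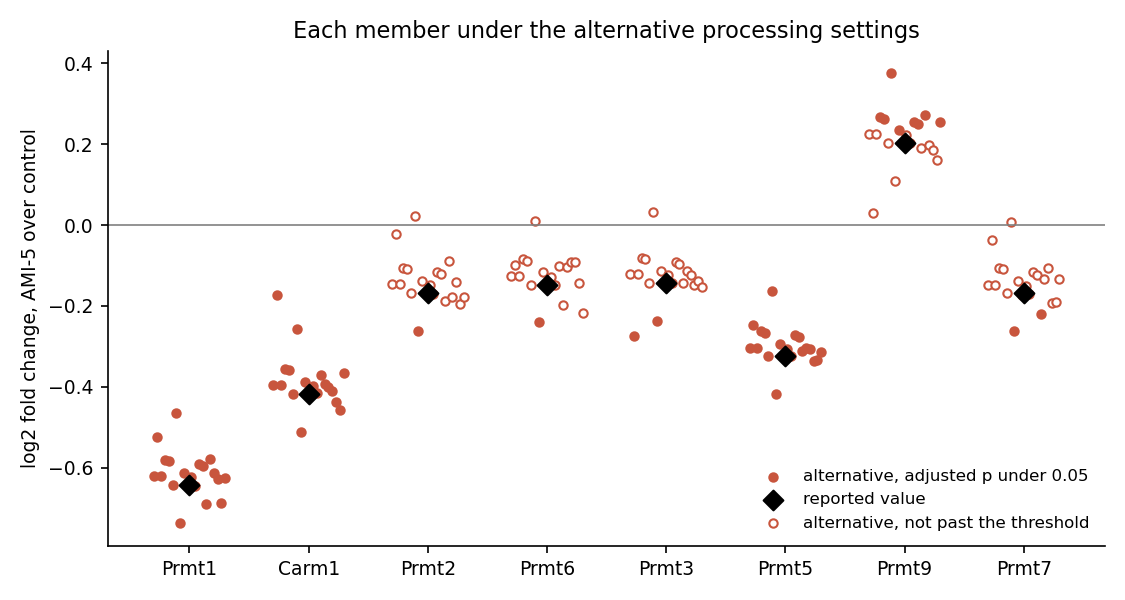
Log2 fold change of each tested member as reported (black diamonds) and under each alternative setting or left-out library (circles, filled where adjusted p was under 0.05). All circles of Prmt1, Carm1 and Prmt5 are filled and below 0, while Prmt2, Prmt3, Prmt6 and Prmt7 each reach just above 0 under removal of a length trend.

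The members' unequal changes shifted the make-up of the family's transcripts. Summed over the 9 genes, the level was 162, 154 and 164 CPM per kb in the control libraries and 125, 115 and 118 CPM per kb in the AMI-5 libraries. Prmt1 made up 47.2% ± 0.712 (SD, n = 3) of that sum in the control libraries and 40.5% ± 1.18 in the AMI-5 libraries. Prmt9 made up 2.06% ± 0.0835 and 3.19% ± 0.114. Carm1 held a share of 16.1% ± 0.699 and 16.2% ± 0.903, and the groups overlapped. Type I genes together held 81.1% ± 0.516 in controls and 78.2% ± 0.467 with AMI-5, type II genes 14.1% ± 0.372 and 16.1% ± 0.539, and type III 4.78% ± 0.173 and 5.70% ± 0.283. These shares depend on one another, since a fall of Prmt1 raises all the others.

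Ratios within a library do not depend on a single scaling factor for that library. Removal of GC or length trends differs by gene and can change them. Prmt1 stood at 4.06, 3.72 and 3.95 times Prmt5 in the control libraries, per kilobase, and at 3.38, 2.94 and 3.08 times with AMI-5. Prmt1 over Prmt9 had a mean of 22.9 in the control libraries, the lowest at 21.9, and of 12.7 in the AMI-5 libraries, the highest at 13.3. Carm1 over Prmt5 was 1.28 to 1.41 in controls and 1.23 to 1.27 with AMI-5, a narrow separation. With GC and length trends removed, Carm1 had a log2 fold change of -0.17 and Prmt5 of -0.25, so Carm1 then fell less than Prmt5. An exact two-sided permutation test of 3 against 3 libraries cannot go below 0.1, and 7 of the 8 ratios computed reached that value (Benjamini-Hochberg adjusted 0.114). For Prmt1 over Prmt9 separation was fixed beforehand, since the AMI-5 libraries of Prmt1 all lay below and those of Prmt9 all above the controls. Most of the ratios also share Prmt5, so their number is no added support.

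The promoters of Prmt1, Prmt5 and Prmt9 are shown because the first pair fell with AMI-5 and the last had the one positive value. Each holds 250 bases before and 50 bases from the annotated start (RefSeq, GRCm38.p6, strand of the gene), and capitals mark motif matches. They lie at chr7:44986371-44986670 (minus), chr14:54517421-54517720 (minus) and chr8:77549147-77549446 (plus).
Prmt1: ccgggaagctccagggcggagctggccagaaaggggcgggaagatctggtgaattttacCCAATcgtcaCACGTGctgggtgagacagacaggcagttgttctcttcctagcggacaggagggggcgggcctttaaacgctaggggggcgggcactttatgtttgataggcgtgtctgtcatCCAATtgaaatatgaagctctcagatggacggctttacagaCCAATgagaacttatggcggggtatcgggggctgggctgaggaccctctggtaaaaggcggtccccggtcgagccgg
Prmt5: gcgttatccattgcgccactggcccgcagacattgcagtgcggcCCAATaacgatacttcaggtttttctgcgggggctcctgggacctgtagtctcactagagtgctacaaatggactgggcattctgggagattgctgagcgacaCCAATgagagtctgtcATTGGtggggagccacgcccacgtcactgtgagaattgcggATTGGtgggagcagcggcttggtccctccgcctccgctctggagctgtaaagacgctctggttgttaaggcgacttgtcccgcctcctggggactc
Prmt9: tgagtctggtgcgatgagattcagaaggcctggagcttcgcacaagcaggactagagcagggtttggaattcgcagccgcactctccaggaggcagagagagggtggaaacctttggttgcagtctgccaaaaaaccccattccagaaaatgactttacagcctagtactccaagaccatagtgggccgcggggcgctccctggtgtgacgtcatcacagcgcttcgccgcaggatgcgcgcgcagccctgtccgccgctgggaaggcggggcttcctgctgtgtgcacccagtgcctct
Motifs searched on both strands were CACGTG (the E-box of Myc-family factors), CCAAT (bound by NF-Y), TGATGCAA (an ATF4 element) and TTTCCCGC and TTTGGCGC (forms bound by E2F factors).

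Prmt1 held 3 matches to CCAAT and 1 to CACGTG, none overlapping another, and Prmt5 held 4 matches to CCAAT, 2 on each strand. No match to any of these motifs lay in the window of Prmt9. A promoter was found for 8 of the 9 genes, with Carm1 the one without. Of these 8, 4 held CCAAT (Prmt1, Prmt2, Prmt3 and Prmt5), against 37.4% of all 32851 promoters of this length, and 2 held CACGTG (Prmt1 and Prmt3), against 7.15%. At least 3 matches to CCAAT occurred in 3.37% of all promoters and at least 4 in 1.06%. The ATF4 element and both E2F forms were found in 0 of the 8, against 0.895%, 1.07% and 0.514% of all promoters. Promoters of these genes held 55.0% to 79.0% GC and 16 to 44 CG pairs. The medians over all promoters were 52.7% and 7, so the shares compare sets of unlike base content. A match is a description of letters and not evidence that a factor binds there.

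The genes whose profile over the 6 libraries lay closest to Prmt1 were Phb, Nedd8 and Atpif1. Likeness was the root mean square difference of log2 CPM centred on each gene's mean, among 11728 protein-coding genes of at least 5 CPM. The differences were 0.0256, 0.0280 and 0.0283, against a range of 0.77 for Prmt1 itself. Their log2 fold changes with AMI-5 were -0.67, -0.63 and -0.64, beside -0.64 for Prmt1. That closeness follows from the way the genes were picked. Phb, Nedd8 and Atpif1 share 30.3%, 10.0% and 25.2% of their sequence with other genes, so their counts are uncertain. Closest to Carm1 were Zfp821, Rgs12 and Csnk1e (0.0169, 0.0232 and 0.0232), and closest to Prmt5 were Dnajc11, Rnf166 and Brd2 (0.00816, 0.0129 and 0.0141). All points share the same 6 libraries, which form 2 groups, and no test was made.

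Of 40 genes listed as partners, substrates, readers or suppliers of these enzymes, 38 were tested, 9 were higher and 13 lower, beside 27.5% higher and 26.6% lower among all genes tested. These counts are near that background. Their median log2 fold change was -0.021, against -0.0013 over all genes tested. Of the 4 listed partners of Prmt5, 1 was higher and 1 lower. Wdr77, the subunit that Prmt5 needs for full activity, had means of 34.7 ± 0.476 and 37.4 ± 3.02 CPM and did not pass (log2 fold change 0.11, 95% interval -0.055 to 0.27, adjusted p = 0.244). It shares 29.9% of its sequence with other genes. Clns1a, which brings Sm proteins to the enzyme, was at 47.9 and 50.4 CPM (log2 fold change 0.074, adjusted p = 0.354), and -0.018 with library totals only. Riok1, an alternative adaptor, had a log2 fold change of 0.23 (adjusted p = 0.0406), but 7 of 20 alternatives ended that call. Dropping control replicate 1 or 3 gave 0.16 or 0.21, and dropping AMI-5 replicate 1 or 3 gave 0.22 or 0.25, none past the threshold. Coprs, which directs the enzyme to histones, fell by 0.42 on the log2 scale (adjusted p = 0.0101), a call lost with a length trend removed (-0.22, adjusted p = 0.109).

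Per kilobase, Clns1a stood at 0.663, 0.666 and 0.600 times Prmt5 in the control libraries and at 0.900, 0.826 and 0.816 times with AMI-5. Riok1 over Prmt5 went from 0.481, 0.589 and 0.501 to 0.793, 0.751 and 0.762. The groups did not overlap in either ratio (exact permutation p = 0.1 for each, the smallest possible). For Riok1 this was fixed beforehand, since its AMI-5 libraries all lay above its controls and those of Prmt5 all below. Both ratios carry the fall of Prmt5 and add no separate support. Coprs over Prmt5 was 0.222 to 0.264 in controls and 0.222 to 0.258 with AMI-5, and overlapped.

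Among partners of the type I enzymes, Btg2, an antiproliferative protein that stimulates Prmt1, rose by 0.47 on the log2 scale (adjusted p = 0.0154), with means of 155 ± 27.4 and 215 ± 14.0 CPM. That call was lost without AMI-5 replicate 1 (0.44, adjusted p = 0.0624) or AMI-5 replicate 2 (0.48, adjusted p = 0.0507), at folds close to the reported one. Its relative Btg1 was at -0.11 (adjusted p = 0.125), and Epb41l3, an inhibitor of Prmt3, at -0.0038 (adjusted p = 0.959). Of the 5 coactivators that work with Carm1, the 1 that passed the test was the acetyltransferase Crebbp, which fell by 0.76 on the log2 scale (adjusted p = 4.32e-05), whereas its paralog Ep300 was at -0.078 (adjusted p = 0.513) and Ncoa1, Ncoa2 and Ncoa3 at 0.084, 0.019 and 0.063.

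Of 7 listed substrates, 6 were lower, beside 26.6% of all genes tested, and the list had a median log2 fold change of -0.52. The list was chosen with earlier results of these data known, so this count is a description only. The Sm protein genes Snrpb, Snrpd1 and Snrpd3, substrates of Prmt5, had log2 fold changes of -0.52, -0.61 and -0.39 (adjusted p = 1.29e-05, 0.000113 and 0.000282). Sf3b2, the substrate of Prmt9, was lower by a log2 fold change of -0.37 (adjusted p = 6.28e-05), at 346 ± 3.38 and 267 ± 2.96 CPM. Removal of a length trend over all genes took Snrpd3 to -0.21, Sf3b2 to -0.19 and Snrpd1 to -1.79, and all kept their calls. Fbl, a nucleolar methyltransferase with arginine-rich repeats, had a log2 fold change of -2.73, but 19.7% of its sequence lies in other genes, so this value is uncertain. The poly(A)-binding protein Pabpc1, a substrate of Carm1, was at -0.15 (adjusted p = 0.0308), a call lost in 11 of 19 alternatives and turned to 0.026 with a length trend removed. Leaving out any library other than control replicate 3 was enough to lose it (-0.15 to -0.13). Rps2 was at 181, 109 and 15.2 CPM in the control libraries and did not pass (log2 fold change -0.98, adjusted p = 0.412). The value rested on single controls, at -0.28 without control replicate 1 (adjusted p = 0.835) and -1.49 without control replicate 3 (adjusted p = 0.0212). With the replicate number as a block Rps2 was at -0.59 (adjusted p = 0.705). It shares 43.0% of its sequence with other genes, Pabpc1 9.94% and Snrpd1 5.56%.

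Readers of methylated arginine carry Tudor domains. Smn1, which binds methylated Sm proteins, was lower (log2 fold change -0.36, adjusted p = 0.00301, but -0.17 and adjusted p = 0.0804 with a length trend removed). Snd1 was lower too (-0.26, adjusted p = 0.00663), but not without AMI-5 replicate 2 (-0.20, adjusted p = 0.0501) or with a length trend removed (-0.099, adjusted p = 0.262). Tdrd3 and Smndc1 did not pass (adjusted p = 0.331 and 0.367), though Tdrd3 was at -0.20 (adjusted p = 0.0151) with GC and length trends removed and at 0.25 (adjusted p = 0.00477) with a length trend alone removed. Smndc1 was at -0.44 (adjusted p = 0.000102) under the former.

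Of 7 tested genes that break down or replace arginine marks, 4 were higher and 1 lower, beside 27.5% and 26.6% of all genes tested. Ddah2, which hydrolyses free asymmetric dimethylarginine, had control libraries at 146, 141 and 164 CPM and an AMI-5 mean of 96.7 CPM. The groups did not overlap, and the log2 fold change was -0.64 (SE 0.067, adjusted p = 7.78e-06), or -0.40 with GC and length trends removed. Its paralog Ddah1 was higher by 0.37 on the log2 scale (adjusted p = 0.0284), at means of 10.2 and 13.3 CPM, but the call was lost without control replicate 1 (0.29), control replicate 2 (0.38) or AMI-5 replicate 2 (0.29) and with library totals only (0.28). Padi2, which converts arginine to citrulline, went from 19.5 ± 10.6 to 86.3 ± 3.42 CPM (SD, n = 3), and its groups did not overlap. The log2 fold change was 2.14 (SE 0.42, adjusted p = 0.0135), and the call was lost without control replicate 1 (2.14, adjusted p = 0.0543) or with the replicate number as a block (2.21, adjusted p = 0.0621). Padi3 was also higher (2.13, adjusted p = 0.00254) at a low level of 0.174 and 0.792 CPM, as was Padi1 (1.32, adjusted p = 0.00232), with 30.3% shared sequence. Padi4 did not pass (0.55, adjusted p = 0.609) except without AMI-5 replicate 3 (1.05, adjusted p = 0.00508). Jmjd6, at times described as an arginine demethylase, was at -0.038 (adjusted p = 0.63).

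Methyl donor genes divided by form. Mat1a, the S-adenosylmethionine synthetase of adult liver, rose by 1.21 on the log2 scale (adjusted p = 5.77e-07), with means of 51.1 ± 5.78 and 118 ± 9.48 CPM. Mat2a, the synthetase of most other tissues, was lower (log2 fold change -0.33, adjusted p = 0.00081, 14.2% shared sequence), at -0.52 with GC and length trends removed and -0.17 with a length trend alone removed. In the AMI-5 libraries Mat1a was at 121, 107 and 125 CPM, lowest in replicate 2, where the liver transcripts Alb and Afp were highest. The part of liver tissue in the level of Mat1a was not tested. Mtap, which clears a natural inhibitor of Prmt5, was at 45.1 and 47.0 CPM (adjusted p = 0.454), and Mat2b at 78.7 and 75.3 CPM (adjusted p = 0.356). Ahcy was higher (1.69), but 68.7% of its sequence is shared with other genes. The unrelated arginine methyltransferases Ndufaf7, of mitochondria, and Mettl23 had log2 fold changes of 0.12 (adjusted p = 0.279) and 0.31 (adjusted p = 0.0455), the latter lost in 9 of 19 alternatives. Mettl23 shares 33.9% of its sequence with other genes. Its lost calls included leaving out control replicate 2 (0.31) or 3 (0.24) and AMI-5 replicate 1 (0.28) or 2 (0.31).

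Scaling also decided several of the genes that did not pass. With a length trend removed over all genes, 17 list genes were higher, beside 35.5% of all genes tested. The added ones were Epb41l3, Wdr77, Clns1a, Ncoa1, Ncoa3, Tdrd3, Mtap and Ndufaf7. Under that setting Wdr77 was at 0.27 (adjusted p = 0.0076) and Clns1a at 0.24 (adjusted p = 0.00518). With library totals only, or with GC and length trends removed, Btg1, Smndc1 and Mat2b were lower.

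**Figure D4:**
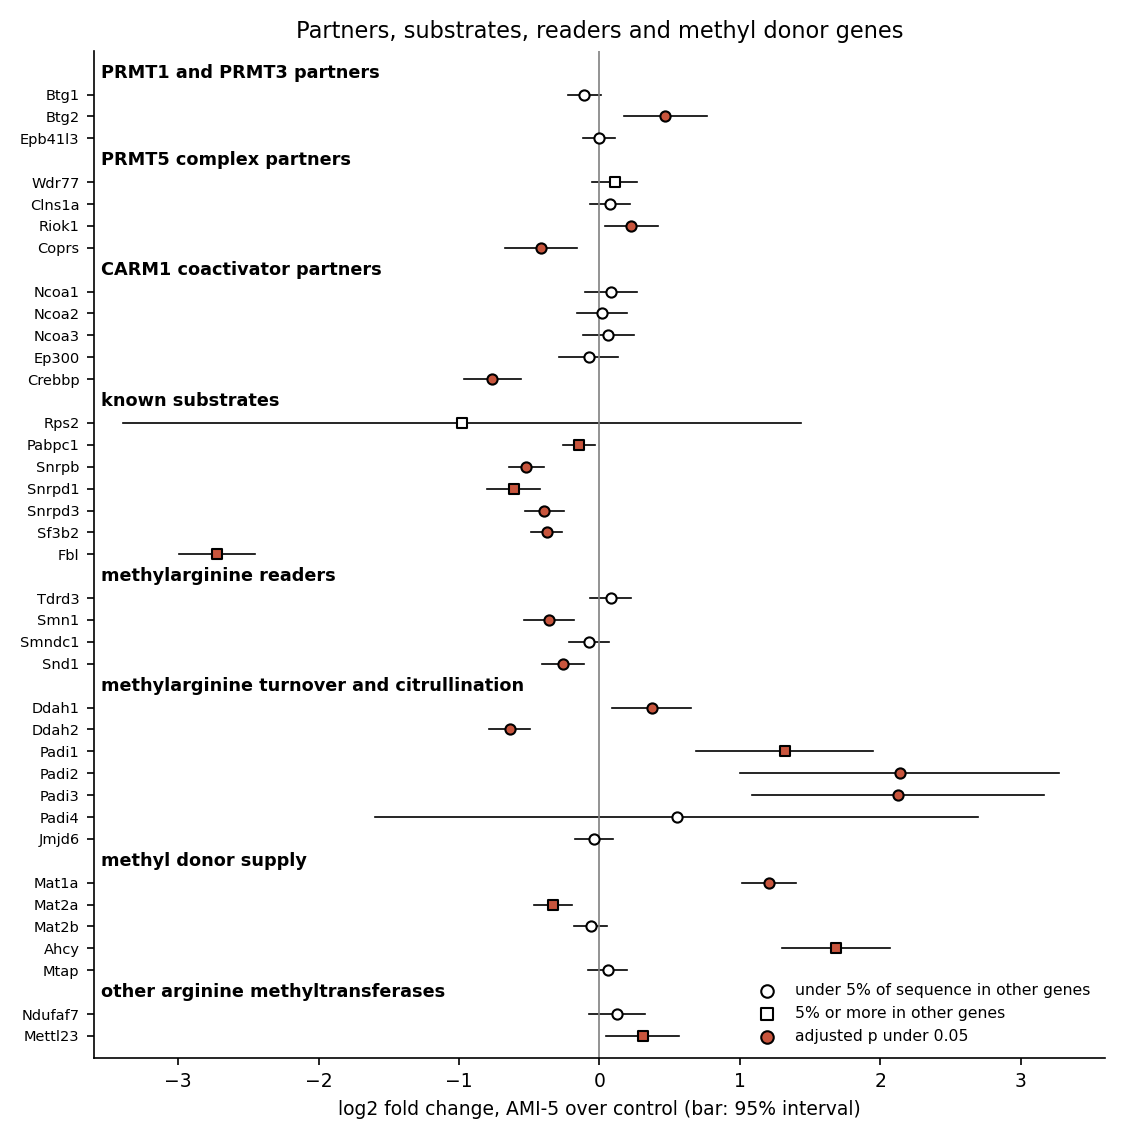
Log2 fold change (AMI-5 over control) with 95% intervals for 37 of the 38 tested genes of the partner, substrate, reader, turnover and methyl donor lists; filled symbols passed the threshold and squares mark genes with 5% or more of their sequence in other genes. Of the 7 substrates 6 are filled and below 0, while Padi1, Padi2, Padi3, Mat1a and Ahcy lie above 1.

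Cell division and progenitor genes moved with Prmt1. All 6 proliferation markers (Mki67, Top2a, Plk1, Cdc20, Mcm7 and Tyms) were lower, beside 26.6% of all genes tested, with a summed level of 838 to 884 CPM in controls and 495 to 545 CPM with AMI-5, a log2 ratio of means of -0.76. Both progenitor markers, Pdx1 and Nkx6-1, were lower as well, at a summed 223 to 250 CPM in controls and 128 to 148 CPM with AMI-5, a log2 ratio of -0.78. The part of either list in the fall of Prmt1, Carm1 and Prmt5 was not tested. The 5 acinar markers summed to 38284 to 51614 CPM in controls and 75129 to 95689 CPM with AMI-5. Of them Cpa1, Cel and Ctrb1 were higher, beside 27.5% of all genes tested. Most of the sum was Ctrb1, at means of 38028 and 69772 CPM. Ptf1a (log2 fold change -0.087) and Bhlha15 (0.12) did not pass. With libraries scaled to totals that leave out the 5 acinar markers and the 200 most abundant genes, Prmt1 was at -0.61 (adjusted p = 7.09e-06), Carm1 at -0.39 (adjusted p = 0.000199) and Prmt5 at -0.29 (adjusted p = 0.000611). Mesenchymal markers summed to 7113 to 7464 CPM in controls and 6907 to 7937 CPM with AMI-5. Within that sum Col1a1 was lower (log2 fold change -0.27, adjusted p = 0.00757) and Col3a1 higher (0.19, adjusted p = 0.0316). Pdgfra and Vim did not pass. Leukocyte markers summed to 84.1 to 107 CPM in controls and 123 to 148 CPM with AMI-5, and erythroid markers to 4.08 to 10.5 CPM and 42.0 to 121 CPM. Their part in the results was likewise not tested.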

How the data were processed

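Total RNA of 6 samples was sequenced, 1 library each. Values are read counts per gene as deposited by the authors, not normalized, and the deposited table also gives gene lengths in bases. The submitters' processing notes name featureCounts 1.6.2, GSNAP 2018-05-30, bcl2fastq 2.19.1 and the build mm10. They give no strand or multi-mapping setting. The 92 spike-in rows held 1 read and were left out. Symbols and shared sequence (percent of 50-base sequences found in another annotated gene) came from GENCODE M21, whose positions overlapped for 99.8% of shared identifiers.

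Genes were tested with edgeR 4.0.16 in R 4.3.3 (TMM, filterByExpr, robust quasi-likelihood F test, two-sided, group as the only term), with Benjamini-Hochberg adjustment over 17519 genes. Intervals are 95%. The test was checked on simulated counts with 200 genes changed and no GC or length trend. Far more genes were called in these data, so that check does not bear on the choice of scaling. The members and lists were chosen with earlier results of these data known, so counts over them are descriptions only. All 9 members are named, list genes were named with those past the threshold first, and likeness took the 3 nearest genes. Control libraries had fewer reads in all. Within a group, every pair of libraries differed beyond sampling noise (chi-square over degrees of freedom 7.23 to 17.5), so none was merged. Alternatives included other scalings, filters, DESeq2 1.42.0, limma 3.58.1 voom, trend removal and left-out libraries. A few list genes enter the counts but are not reported here by name.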

Additional observations from a re-analysis of the deposited data

How the results depend on the processing

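Of the 20 alternatives, 19 gave a number of lower members within 1.5 times the 3 reported. Library totals only gave 7, with 33.6% of all genes tested then lower. The number of higher members was 1 in place of 0, always Prmt9, with upper-quartile scaling, library totals without abundant genes, at least 10 counts in every library, the length trend removed, unique-sequence genes alone (6 members tested, Carm1 and Prmt6 not among them) and TMM factors from unique-sequence genes (added after seeing the data). Leaving out 1 library gave 0 to 1 higher and 3 to 4 lower members, and 5 to 9 higher and 11 to 14 lower list genes. The length trend removed gave 17 higher list genes in place of 9, with 35.5% of all genes tested then higher. It reversed Prmt2 (0.022), Prmt3 (0.032), Prmt6 (0.0092) and Prmt7 (0.0085), with the median of all genes at 0.10. Testing without a filter on low counts, with no trend removed, put that median at 0.14. The cause was not tested. Among all calls, 50.9% were higher, against 40.2% with library totals only and 61.8% with the length trend removed. The replicate block gave 0 higher and 4 lower members, Prmt2 being added (-0.17, adjusted p = 0.0491). It ended the calls of Riok1 (adjusted p = 0.0553), Padi2 (0.0621) and Mettl23 (0.0523). Same-numbered libraries did not deviate together (correlations of -0.058, -0.038 and -0.048). Such correlations cannot show whether same-numbered samples shared a litter or a day, and no label says so.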
